A study of Arabidopsis thaliana with 12 samples.

Results

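The comparison set the pxf er erl2 quintuple mutant against the er erl2 mutant of Arabidopsis thaliana, with 3 libraries in each group, taken by the genotype labels from a series of 12 libraries in 4 genotypes. It asks what losing the PXY receptor family adds in plants that already lack the receptor kinases ER and ERL2. The er erl2 line carries er-105 and erl2-1, the pxf line carries pxy-3, pxl1-1 and pxl2-1, and pxf er erl2 carries all 5 mutations, so both groups compared share er-105 and erl2-1. The other 2 genotypes, Columbia-0 wild type and pxf, were used for the fit and for showing what the same receptor loss did where ER and ERL2 were present. Plants were 3 weeks old and grown in long days; hypocotyl and the uppermost 5 mm of root were taken as 1 sample, so each library mixes cambium, xylem, phloem and outer tissues. Fewer cells of a type and less RNA per cell cannot be told apart in such samples. The labels call the replicates biological and do not say how many plants made up each. The lines came from laboratory stocks, and loci other than the named alleles that may differ between lines cannot be told apart from the effect of those alleles.

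The vascular cambium is a ring of dividing cells that forms xylem inwards and phloem outwards. PXY is a leucine-rich-repeat receptor kinase of cambium cells that binds the TDIF peptide, which is made in the phloem from CLE41 and CLE44, and it acts partly through the homeobox genes WOX4 and WOX14. ER and ERL2 belong to the ERECTA family of receptor kinases, which bind EPFL peptides and act beside the PXY family in vascular organisation and radial growth.

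Total counts were 11307735 to 12260181 in er erl2 and 12012325 to 13333413 in pxf er erl2. Across tested genes, log2 CPM correlated at 0.977 to 0.99 within the genotypes and at 0.935 to 0.942 between libraries of the 2 groups. The first principal component of the 6 libraries, with 71.4% of the variance, separated the groups, and the second, with 13.7%, set replicate 3 of pxf er erl2 (33.7) apart from its replicates 1 and 2 (-15.8 and -15.5). Of 19236 genes tested, 6591 (34.3%) passed an adjusted p of 0.05 in edgeR's quasi-likelihood test, 3467 (18.0%) higher and 3124 (16.2%) lower in pxf er erl2, and 6607 passed without its replicate 3. The median log2 fold change of all tested genes was 0.005. Counts of called members in each gene list below stand beside the 34.3% called over all tested genes. A change of at least 2-fold was seen in 1864 genes (9.69%) and one of at least 8-fold in 238 (1.24%). Values of single genes are TMM-scaled CPM, that is, counts per library scaled for depth, listed in the order of replicates 1, 2 and 3, and fold changes are pxf er erl2 over er erl2.

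Among the receptors, PXY itself fell. Its CPM were 348, 367 and 333 in er erl2 and 83.8, 75.6 and 72.6 in pxf er erl2, well apart, a 4.51-fold fall (log2 -2.17 ± 0.081 SE, adjusted p = 2.1e-09). The remaining reads were more than the 22.9 ± 2.76 CPM (SD, n = 3) of pxf, against 249 ± 1.52 in wild type. PXL1 had 0 to 6 counts in each library and was not tested. PXL2 had 3 to 12 counts in er erl2 and 2 to 5 in pxf er erl2 and did not pass (log2 -0.98 ± 0.629, adjusted p = 0.257). ER, mutated in both groups, gave 8.67, 8.54 and 11.5 CPM in er erl2 and 11.3, 8.97 and 7.7 in pxf er erl2, which overlap, beside 38.3 ± 5.17 in wild type and 62.5 ± 3.14 in pxf. ERL2 had 3 to 6 counts in er erl2 and 1 to 2 in pxf er erl2, too few to test.

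Of the 11 receptor kinase genes listed, 8 were tested, 1 rose and 2 fell (median log2 fold change -0.17). The share called, 37.5%, was near the 34.3% of all tested genes. ERL1, the remaining ERECTA family member, fell from 22, 28 and 23 counts in er erl2 to 0, 1 and 8 in pxf er erl2 (log2 -3.04 ± 0.688, adjusted p = 0.00434). Wild type and pxf held 0.0304 ± 0.0527 and 0.075 ± 0.0769 CPM of ERL1, so the er erl2 libraries, at 1.82 to 2.28 CPM, were the high ones. RUL1, a receptor-like kinase gene known for promoting cambium activity, rose 1.29-fold from 91.6, 89.8 and 99.2 CPM to 119, 121 and 122 (adjusted p = 0.000993). MOL1, a receptor-like kinase gene that represses it, stood at 72.3 ± 2.06 CPM in er erl2 and 71 ± 1.64 in the quintuple mutant (adjusted p = 0.841). The co-receptor genes BAK1 and SERK1 did not pass either, at log2 -0.14 and -0.20.

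Of 6 peptide ligand genes, 4 were tested and 2 rose (50.0% called), both encoding the TDIF peptide. CLE44 rose 1.87-fold, from 14.3, 15.1 and 16.9 CPM to 29.1, 29.8 and 27.7 (log2 0.90 ± 0.094, adjusted p = 1.6e-05). CLE41 was 109, 128 and 140 CPM in er erl2 and 170, 164 and 140 in pxf er erl2, so that the highest er erl2 library and the lowest pxf er erl2 library nearly met (log2 0.33 ± 0.097, adjusted p = 0.0178). CLE41 did not pass without er erl2 replicate 1 (adjusted p = 0.0781), without pxf er erl2 replicate 1 (0.0722) or without its replicate 2 (0.0618). CLE42 (log2 -0.41, adjusted p = 0.0788) and EPFL4 (log2 0.002) did not pass, and EPFL5 and EPFL6 had too few counts to test.

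All 27 listed cambium transcription factor genes were tested, and 13 fell while 3 rose (59.3% called, median log2 fold change -0.39). Over all tested genes, 34.3% were called, 16.2% lower and 18.0% higher. STM, a class I KNOX homeobox gene that keeps meristem cells undifferentiated, fell furthest: 146, 159 and 159 CPM became 26.9, 30.6 and 21.8, a 5.84-fold fall (log2 -2.55 ± 0.121, adjusted p = 2.51e-08). LBD11, a LOB-domain gene active in the cambium, fell 2.86-fold from 23.5, 23.3 and 22 CPM to 8.11, 8.67 and 7.27 (adjusted p = 3.57e-06). Neither gene had a library of either group near the other group.

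WOX14 and WOX4, the homeobox genes downstream of PXY, both fell. WOX14 went from 21.9, 20.8 and 18.7 CPM to 9.28, 9.5 and 9.89 (2.14-fold, adjusted p = 2.83e-05). WOX4 went from 74.6, 77.7 and 81 CPM to 59.8, 56.4 and 62.1, a smaller change of 1.31-fold (log2 -0.39 ± 0.066, adjusted p = 0.000643). Of the HD-ZIP III genes, which pattern xylem and restrain or promote cambium division, 4 of 5 fell: ATHB-15 (log2 -0.76), REV (-0.63), PHV (-0.57) and PHB (-0.42). HB-8 did not pass (log2 -0.21, adjusted p = 0.0913). ATHB-15, which had the highest CPM of these, gave 364, 370 and 385 CPM in er erl2 and 235, 211 and 215 in pxf er erl2. Wild type means were 302, 148, 160 and 135 CPM for ATHB-15, REV, PHV and PHB. Their er erl2 means were 373, 194, 153.5 and 172.5 CPM, and their pxf er erl2 means 220, 125, 103 and 129. The er erl2 mean was thus above wild type in all but PHV, and PHB in pxf er erl2 was near its wild type level.

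BLR, the BELL partner of KNOX proteins also called PENNYWISE, fell 1.69-fold from 76.3, 76.9 and 66.2 CPM to 42.8, 46.4 and 40.9 (adjusted p = 9.94e-06). MP, an auxin response factor gene, fell 1.65-fold from 65.8, 63 and 68.8 CPM to 40.2, 41 and 38.2 (adjusted p = 0.000136). The other falls were smaller: HAM4 (log2 -0.53), AIL7 (-0.39) and KNAT1 (-0.34). HCA2, a DOF factor gene whose overexpression raises cambium activity, was the largest of the 3 rises, from 8.58, 7.48 and 7.29 CPM to 18.6, 21.3 and 15 (2.35-fold, adjusted p = 2.97e-05).

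The LOB-domain genes LBD3 and LBD4 were the other rises, at log2 0.36 and 0.38 (adjusted p = 0.0389 and 0.0115). LBD4 lost its call without pxf er erl2 replicate 1 (adjusted p = 0.0554). LBD3 lost it without er erl2 replicate 1 (0.113) or 2 (0.109), without pxf er erl2 replicate 1 (0.127) or 2 (0.148), and under 4 other settings. ANT, an AP2 factor gene of dividing cells, was 59.9, 60.4 and 86.5 CPM in er erl2 and 87.7, 90.7 and 78.8 in pxf er erl2. Its groups overlapped through er erl2 replicate 3 (log2 0.32 ± 0.135, adjusted p = 0.0916), and without that library ANT passed (log2 0.53, adjusted p = 0.0025). The remaining 9 of the 27 genes lay between log2 -0.52 and 0.33 and did not pass, BES1, KNAT2, KNAT6, AIL5, AIL6 and TMO6 among them.

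**Figure D1:**
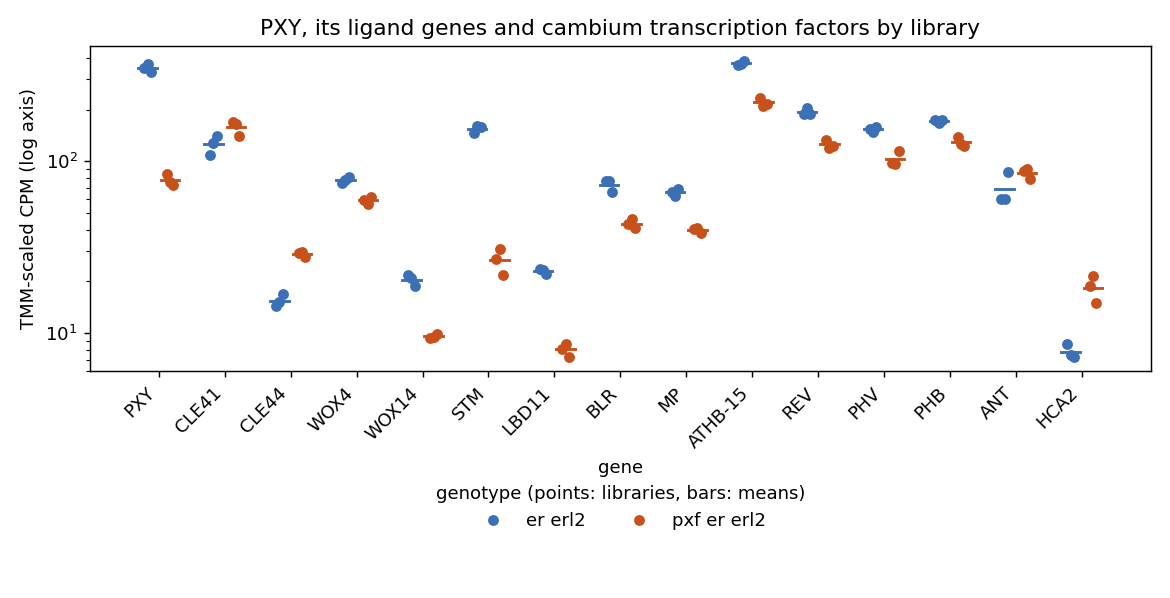
CPM (log axis) of PXY, its ligand genes CLE41 and CLE44, and 12 cambium transcription factor genes in the 3 er erl2 and 3 pxf er erl2 libraries, with points for libraries and bars for means. PXY, STM, LBD11 and WOX14 are lower in every pxf er erl2 library, CLE44 and HCA2 are higher, and ANT overlaps.

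Cell cycle genes split by function. None of the 20 mitotic genes (B-type cyclins, CDKB kinases, Aurora kinases, spindle and cytokinesis genes) passed edgeR's test, with a median log2 fold change of 0.04. At an unadjusted p under 0.05, 2 were higher and none was lower, and DESeq2 called 0. Without pxf er erl2 replicate 3, 5 mitotic genes passed, all higher, and without er erl2 replicate 3, 1 passed, also higher. With the replicate block 1 passed that was lower, CYCB2;1 (log2 -0.62, adjusted p = 0.046). Of 16 DNA replication genes, 8 fell and none rose (50.0% called, median log2 -0.25), and 5 fell without er erl2 replicate 3 or without pxf er erl2 replicate 1. PCNA1, which encodes the DNA polymerase sliding clamp, fell from 43.6, 39.3 and 42 CPM to 28.4, 30.7 and 34 (1.34-fold, adjusted p = 0.00462). PCNA2 fell 1.31-fold and the replicative helicase gene PRL, also called MCM7, 1.28-fold. The changes of PCNA1, PCNA2 and PRL were small, and their groups did not overlap. MCM6 fell with overlapping groups, and MCM5 and MCM6 lost their call in 6 and 5 of 12 alternatives.

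D-type cyclins, which drive entry into the cycle, moved both ways: 3 of 8 rose and 3 fell. CYCD3;3 fell 1.73-fold from 37.6, 46 and 38.9 CPM to 24.1, 24.1 and 22.7 (adjusted p = 3.25e-05). CYCD3;1, with the highest CPM of the risen, rose 1.25-fold from 126, 139 and 151 CPM to 184, 175 and 159 (adjusted p = 0.00504). CYCD1;1 rose 1.81-fold, and CYCD4;1 and CYCD5;1 fell 1.53-fold and 1.46-fold.

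Secondary wall synthesis genes fell together. All 15 listed genes of cellulose and xylan synthesis fell (median log2 -1.17), and their summed level was 3031, 3494 and 1830 CPM in er erl2 against 1284, 1221 and 1182 in pxf er erl2. The er erl2 sum exceeded the 1630 to 2075 CPM of wild type in replicates 1 and 2 and lay within it in replicate 3, while pxf held 1118 to 1217. CESA8, a subunit gene of the secondary wall cellulose synthase, went from 374, 453 and 222 CPM to 138, 129 and 134 (2.62-fold, adjusted p = 0.000565). CESA7 went from 501, 562 and 293 CPM to 216, 194 and 193 (2.25-fold, adjusted p = 0.00177). The third subunit gene, CESA4, was 366, 415 and 203 CPM against 218, 213 and 204, so the groups overlapped at er erl2 replicate 3 (log2 -0.63 ± 0.212, adjusted p = 0.0415). Without er erl2 replicate 1 or 2 or any 1 pxf er erl2 replicate, CESA4 did not pass (adjusted p = 0.125, 0.153, 0.086, 0.0967 and 0.114 in that order). PARVUS, a xylan glycosyltransferase gene, lost its call in 7 of 12 alternatives, and 13 to 15 of the list passed with 1 library left out.

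The largest falls in this group were in FLA12 (log2 -1.69), a fasciclin-like arabinogalactan protein gene, COBL4 (-1.54), a COBRA-like gene for cellulose assembly, and GUX1 (-1.48), which adds glucuronic acid to xylan. GAUT12, also called IRX8 and needed for xylan, fell 2.78-fold from 134, 149 and 87.7 CPM to 47, 45.5 and 41.2 (adjusted p = 4.31e-05). IRX14, a xylan backbone gene, fell 1.58-fold from 126, 133 and 93 CPM to 72.4, 74.6 and 76.3 (adjusted p = 0.00104). In CESA7, CESA8, COBL4, FLA12 and GAUT12 alike, er erl2 replicate 3 was the lowest er erl2 library, yet above each pxf er erl2 library.

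The promoters of 3 of these genes are printed because they hold the secondary wall MYB-responsive element (SMRE), which MYB46 and MYB83 are known to bind. Searched on both strands, it is ACCNANN with A or T at the fourth place, A or C at the sixth and T or C at the last, and no other motif was searched. The 250 bases before the annotated start of each gene come from the RefSeq genome and annotation of build TAIR10.1, read 5′ to 3′ on the gene's strand, with each match in capitals. CESA4 lies at chr5:17714140-17714389 on the plus strand with 1 match, IRX14 at chr4:17382029-17382278 on the minus strand with 2, and GAUT12 at chr5:22221969-22222218 on the minus strand with 1.
CESA4: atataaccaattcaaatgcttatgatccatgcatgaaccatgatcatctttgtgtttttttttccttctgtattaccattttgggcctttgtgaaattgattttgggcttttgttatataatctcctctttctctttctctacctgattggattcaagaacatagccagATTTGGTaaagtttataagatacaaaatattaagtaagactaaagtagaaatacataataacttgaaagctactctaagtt
IRX14: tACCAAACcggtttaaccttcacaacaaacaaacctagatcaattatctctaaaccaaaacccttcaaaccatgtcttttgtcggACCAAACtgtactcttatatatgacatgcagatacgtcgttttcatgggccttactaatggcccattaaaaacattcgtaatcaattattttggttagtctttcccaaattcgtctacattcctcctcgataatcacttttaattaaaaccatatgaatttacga
GAUT12: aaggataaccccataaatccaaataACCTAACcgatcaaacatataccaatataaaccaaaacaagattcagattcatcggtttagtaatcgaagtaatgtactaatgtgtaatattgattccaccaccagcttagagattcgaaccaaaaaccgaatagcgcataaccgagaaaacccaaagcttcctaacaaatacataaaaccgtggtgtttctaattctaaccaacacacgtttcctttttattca
A match was present in 8 of the 15 cellulose and xylan promoters (53.3%), in 11 of the 16 lignin promoters (68.8%), in 5 of 25 secondary wall regulator promoters and in 29.8% of the promoters of 18820 tested protein-coding genes. CESA7, CESA8, IRX9, GUX2, PARVUS, COBL4 and CTL2, which also fell, held no match in these bases. The lists differ in how they moved, as given next, and a match says only that these letters occur there.

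Of 27 secondary wall regulator genes, 25 were tested, 11 fell and 4 rose (60.0% called, median log2 -0.32). The NAC master regulators of fibre walls fell most. NST1 went from 29.1, 33.4 and 16.6 CPM to 1.48, 2.11 and 3.64, a fall of log2 -3.46 ± 0.358 (adjusted p = 3.96e-05). NAC012, also called SND1 or NST3, went from 31.9, 35.5 and 8.69 CPM to 2.57, 2.04 and 3.64 (9.28-fold, adjusted p = 0.000918). NST2 went from 3.14, 4.39 and 1.67 CPM to 0.312, 0.226 and 0.0846 (log2 -3.81 ± 0.501, adjusted p = 9.66e-05). Each was low in every pxf er erl2 library, with er erl2 replicate 3 the lowest of the other group.

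Downstream MYB genes fell less. MYB103 went from 20.6, 24.2 and 11.7 CPM to 4.68, 4.75 and 6.17 (3.62-fold, adjusted p = 0.000496), and MYB85 and MYB43 fell 3.53-fold and 2.55-fold. MYB46, which binds the SMRE, was 32.6, 31.6 and 21.3 CPM against 19.7, 16.4 and 17.7 (log2 -0.67, adjusted p = 0.0218). MYB46 did not pass without er erl2 replicate 1 (adjusted p = 0.0859) or 2 (0.0797), or without pxf er erl2 replicate 2 (0.0778) or 3 (0.0561), and its close homologue MYB83 lay at log2 0.28 (adjusted p = 0.37).

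The 4 rises were VND3, VND6, VND7 and MYB63. The VND genes encode NAC factors of vessel cells: VND7 rose 1.8-fold from 3.05, 2.93 and 2.9 CPM to 5.15, 4.37 and 6.51 (adjusted p = 0.00747), VND3 1.8-fold and VND6 1.65-fold. VND5 fell 1.61-fold, while VND1 did not pass (log2 0.50, adjusted p = 0.106). MYB63, a regulator of lignin genes, rose 2.1-fold from 10.2, 8.95 and 7.2 CPM to 16.9, 15.8 and 23 (adjusted p = 0.000458).

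**Figure D2:**
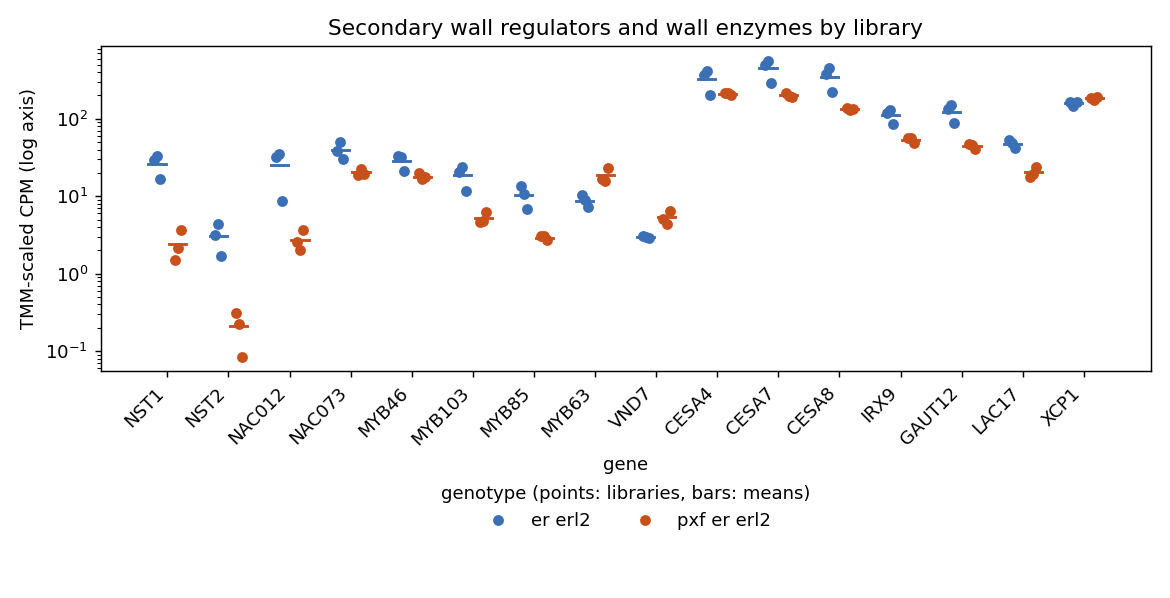
CPM (log axis) of 16 secondary wall, lignin and xylem cell death genes in the 3 er erl2 and 3 pxf er erl2 libraries, with points for libraries and bars for means. NST1, NST2 and NAC012 are lowest in pxf er erl2, VND7 and MYB63 are higher there, CESA4 overlaps, and XCP1 did not pass the test.

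Of 16 tested lignin synthesis genes, 3 fell and 2 rose (median log2 -0.18). The share called, 31.25%, was near the 34.3% of all tested genes. The falls were strongest in the laccases, which polymerise lignin in the wall. LAC4 went from 359, 375 and 196 CPM to 123.4, 117 and 116 (2.61-fold, adjusted p = 0.00125) and LAC17 from 53.9, 48.1 and 41.8 to 17.6, 19.5 and 23.8 (2.37-fold, adjusted p = 6.65e-06). CAD4 and HCT, of the monolignol pathway, rose 1.43-fold and 1.23-fold. Without er erl2 replicate 3, 9 lignin genes passed, and without pxf er erl2 replicate 3, 8 did.

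Of 6 xylem cell death genes, 1 fell (16.7% called, below the 34.3% of all tested genes). It was CEP1, which encodes a cysteine protease (15.9, 13.2 and 11.5 CPM to 5.15, 7.69 and 4.82, 2.29-fold, adjusted p = 0.00329). DESeq2 and the fit on the compared groups alone called 2, and without er erl2 replicate 3, 4 of the 6 passed. XCP1, a protease gene of vessel elements, was 160.5 ± 11.2 CPM in er erl2 and 184.5 ± 8.86 in the quintuple mutant (log2 0.20, adjusted p = 0.174). Of 6 tested genes of the TMO5-LHW module, which sets vascular cell number through auxin and cytokinin, TMO5 fell 1.84-fold, from 33.2, 35.1 and 38.1 CPM to 19.7, 20 and 18.1 (adjusted p = 0.000542). Its relative T5L1 fell 1.51-fold (adjusted p = 0.0112) and did not pass without er erl2 replicate 3 (0.0513), which left 1 call in the module, against 4 without pxf er erl2 replicate 3. The share called in the module, 33.3%, was near the 34.3% of all tested genes.

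**Figure D3:**
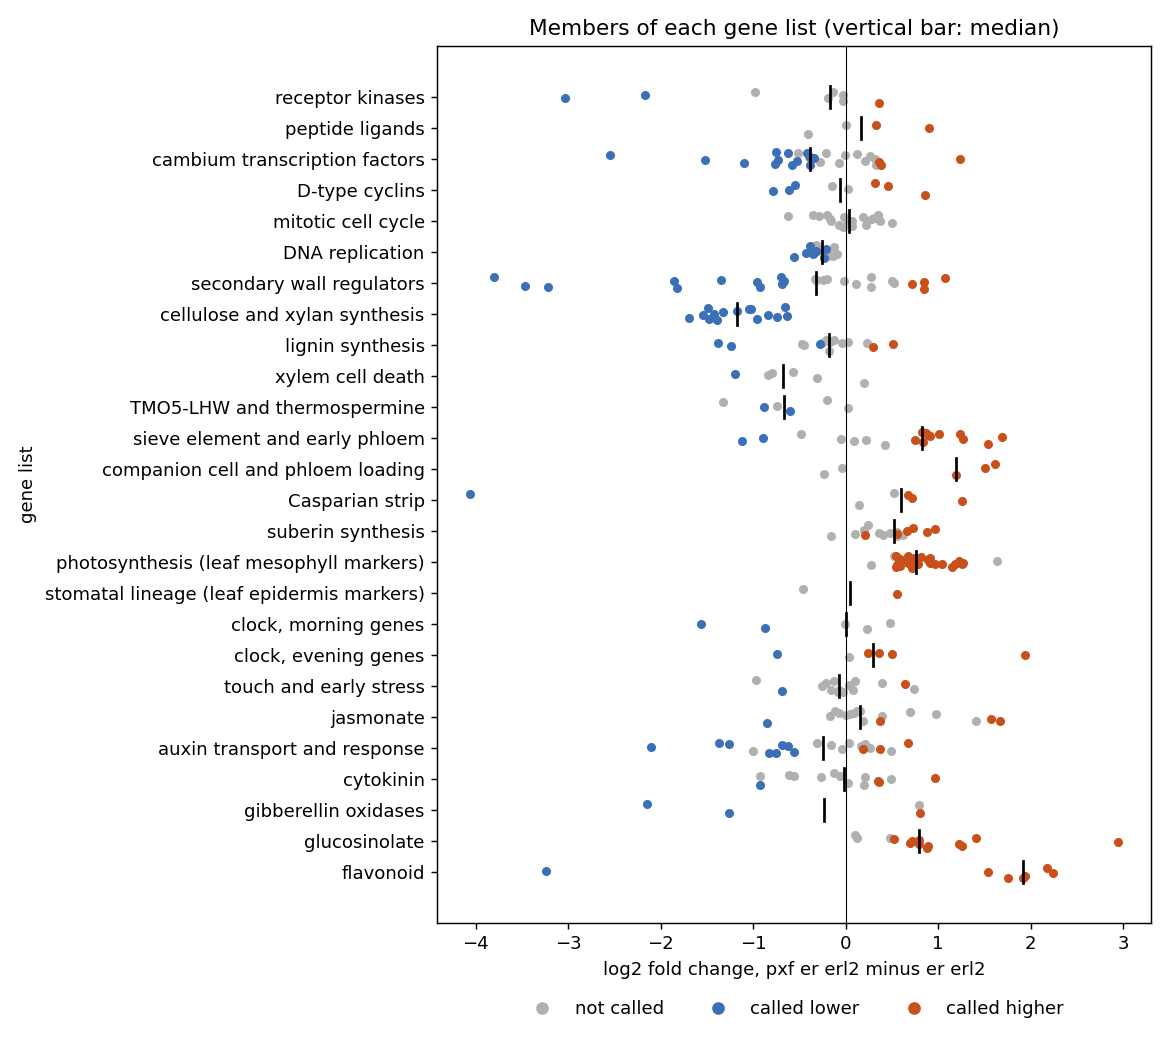
Log2 fold change of each tested member of 26 gene lists, pxf er erl2 minus er erl2, coloured by whether it was called higher or lower in edgeR's test, with vertical bars for medians. Cellulose and xylan genes all lie below 0, 28 of 31 photosynthesis genes are called above 0, and no mitotic gene is called.

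Phloem genes rose. Of 19 sieve element and early phloem genes, 18 were tested, 11 rose and 2 fell (72.2% called, median log2 0.83). Their summed level was 824 to 907 CPM in er erl2 and 1127 to 1441 in pxf er erl2. APL, a MYB factor gene needed for phloem identity, rose 2.41-fold from 15.8, 13 and 19 CPM to 42.6, 38.9 and 33.5 (log2 1.27 ± 0.135, adjusted p = 1.89e-05). NAC086, which acts below APL in sieve element enucleation, rose from 1.16, 1.3 and 0.702 CPM to 3.35, 3.47 and 3.47 (3.22-fold, adjusted p = 0.00183). SEOR1, a sieve element filament protein gene, rose 2.02-fold from 159, 192 and 167 CPM to 381, 393 and 270. Its lowest pxf er erl2 library was replicate 3, still above each er erl2 library.

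MAKR5, a membrane protein gene of CLE45 signalling in protophloem, rose 2.36-fold, and BAM3, the CLE45 receptor gene, rose 1.68-fold from 82.8, 95.3 and 93.4 CPM to 157, 157 and 142 (adjusted p = 3.56e-05). The 2 falls were SMXL3 (2.18-fold, adjusted p = 0.000589), an early phloem regulator whose relative SMXL4 rose 1.86-fold, and the peptide gene CLE26 (1.85-fold, adjusted p = 0.0111). Companion cell genes followed the rise in 3 of 5 tested (60.0% called). AHA3, a plasma membrane proton pump gene of companion cells, went from 85, 84.8 and 85.6 CPM to 245, 255 and 225 (2.84-fold, adjusted p = 1.09e-08). FTIP1, which helps move the FT protein into sieve elements, rose 3.05-fold and the phloem lectin gene PP2-A1 2.28-fold (adjusted p = 9.84e-07 and 5.48e-08). SUC2, the sucrose transporter gene of phloem loading, did not pass (log2 -0.23, adjusted p = 0.509), nor did the potassium channel gene KT2/3.

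Sucrose synthase genes, which break down imported sucrose in sink tissue, were among the falls with the highest CPM. SUS1 went from 1043, 1086 and 692 CPM to 224, 228 and 317 (3.67-fold, adjusted p = 3.04e-05), and SUS4 from 776, 790 and 720 to 164, 171 and 264 (3.82-fold, adjusted p = 6.18e-06). Wild type held 449 ± 10.9 and 323 ± 32.4 CPM of them, between the groups compared.

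Among the Casparian strip and suberin genes listed for outer tissues, PER64 was the only gene called lower. PER64, a peroxidase gene known for Casparian strip lignin, had the largest fall among the named genes, from 354, 482 and 165 CPM to 22.9, 12.4 and 24.8 (16.7-fold, log2 -4.06 ± 0.514, adjusted p = 0.000364). It was 259 ± 82.2 CPM in wild type and 6.28 ± 3.29 in pxf. Of the other 5 tested Casparian strip genes, 3 rose and none fell. MYB36, the master regulator of the strip, rose 2.4-fold, the receptor gene GSO1 1.65-fold, and RBOH F was the third. CASP1 to CASP5 had too few counts to test. Whether PER64 marked Casparian strip tissue in these samples was not tested. Of 16 tested suberin genes, 6 rose (37.5%) and none fell (median log2 0.52), FAR5 by 1.95-fold, FAR4 by 1.84-fold and CYP86A1, a fatty acid hydroxylase gene, by 1.66-fold. All 6 lie on chromosomes 3 and 5, as do 14 of the 16, and KCS20 lost its call in 11 of 12 alternatives.

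Photosynthesis genes, included as markers of leaf mesophyll, rose in 28 of 31 cases and none fell (90.3% called, median log2 0.76). With 1 library left out 22 to 28 rose, 22 without er erl2 replicate 3 or without pxf er erl2 replicate 2, and LHCB2.1 lost its call in 8 of 12 alternatives. Their summed level was 7229, 7654 and 6893 CPM in er erl2 and 14150, 15710 and 10140 in pxf er erl2, beside 3334 to 4561 in wild type and 9896 to 12980 in pxf. CAB1, a chlorophyll a/b-binding protein gene, went from 1234, 1341 and 1166 CPM to 3166, 3620 and 2235 (2.41-fold, adjusted p = 0.000766). RBCS1A, a Rubisco small subunit gene, went from 425, 430 and 410 CPM to 1064, 1219 and 750.5 (2.4-fold, adjusted p = 0.00065). Family members of both genes are near-identical, so reads may be shared among them. The 7 stomatal genes, included as markers of leaf epidermis, summed to 30.3 to 37.4 CPM in er erl2 and 40.3 to 48.3 in pxf er erl2, which do not overlap. Most of this was SCRM, also active outside stomata, which rose 1.47-fold from 28.2, 25.95 and 31.6 CPM to 43.7, 44.6 and 37.6. FAMA, the other one tested, did not pass (log2 -0.46, adjusted p = 0.249), MUTE had no count in the 6 libraries, and SPCH had 3 counts in pxf er erl2 replicate 3 and 0 in the others. No root hair marker was tested, and their summed level was 0.79 to 1.46 CPM in er erl2 and 0 to 0.677 in pxf er erl2. The part of leaf-type transcripts in the other results was not tested.

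Clock genes also differed, with 40.0% of tested morning genes and 83.3% of tested evening genes called. Of 5 morning genes 2 fell: LHY from 78.4, 71.5 and 80.8 CPM to 27.3, 25 and 25.7 (2.96-fold, adjusted p = 9.92e-09) and CCA1 1.83-fold. Both encode MYB-type repressors that peak at dawn. Of 6 tested evening genes 4 rose and 1 fell, GI by 1.41-fold and ELF3 by 1.29-fold. The rise of PCL1, also called LUX, lost its call in 10 of 12 alternatives, DESeq2 among them (adjusted p = 0.0562). PRR5 (log2 1.94, adjusted p = 0.0164) did not pass without er erl2 replicate 2 (0.0674) or 3 (0.0569) or without pxf er erl2 replicate 3 (0.0565). PRR3 fell (log2 -0.75, adjusted p = 0.0151) but not without pxf er erl2 replicate 1 (0.0654). Without er erl2 replicate 2 or 3, or pxf er erl2 replicate 1 or 3, 3 evening genes passed. The time of harvest is not given in the sources used here, and its part in these values was not tested. Of 15 touch and early stress genes 1 rose and 1 fell (13.3% called, below the 34.3% of all tested genes).

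Hormone genes are given with the share of each list called, beside the 34.3% of all tested genes. Of 20 tested auxin genes, 8 fell and 3 rose (55.0% called, median log2 -0.24). IAA30, an Aux/IAA repressor gene, fell 4.31-fold from 9.99, 10.4 and 13.4 CPM to 2.65, 2.94 and 2.2 (adjusted p = 1.53e-05), and IAA19, induced by auxin, fell 2.59-fold from 79.6, 66.9 and 65.9 CPM to 30.8, 23.9 and 27.3. The influx carrier gene LAX2 fell 2.4-fold from 193, 178 and 189 CPM to 80.6, 76.7 and 75.8 (adjusted p = 3.32e-05), while LAX3 rose 1.59-fold and the auxin response factor gene NPH4, also called ARF7, 1.3-fold.

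Of 14 tested cytokinin genes, 3 rose and 1 fell (28.6% called): IPT3, a synthesis gene expressed in phloem, rose 1.96-fold from 73.4, 92.6 and 78.9 CPM to 171, 180 and 128, WOL, a receptor gene, rose 1.27-fold, and CKX5, a degradation gene, fell 1.9-fold. The third rise, the response regulator gene ARR9, lost its call in 10 of 12 alternatives (adjusted p up to 0.186). Of 4 tested gibberellin oxidase genes, the synthesis gene GA20OX2 fell 4.43-fold and the inactivation gene GA2OX2 rose 1.75-fold. GA3OX1, the last synthesis step, was 29.5, 30.2 and 49.5 CPM against 18.6, 18.2 and 8.63 (2.39-fold lower, adjusted p = 0.0165) and did not pass without er erl2 replicate 3 (0.0634). Of 17 jasmonate genes, 3 rose and 1 fell (23.5% called). JAR1, which makes the active conjugate, rose 1.29-fold, and the storage protein genes VSP2 and VSP1 moved oppositely, 2.98-fold up and 1.8-fold down. VSP2 (AT5G24770) and VSP1 (AT5G24780) are neighbours on chromosome 5, in the span of large changes given below. How any reads shared by such neighbours were counted is not given in the sources used here, so their split is uncertain. The third rise, the lipoxygenase gene LOX2, lost its call in 7 of 12 alternatives.

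Defence metabolite genes rose. Of 14 glucosinolate genes 11 rose and none fell (78.6% called, median log2 0.79), with summed levels of 1688 to 1984 CPM in er erl2 and 3184 to 3626 in pxf er erl2. CYP79B2, which starts indolic glucosinolate synthesis from tryptophan, went from 280, 387 and 304 CPM to 714, 832 and 1042 (2.67-fold, adjusted p = 0.000179). MYB28, a regulator of the aliphatic branch, rose 2.39-fold, and MAM1, which elongates the methionine chain in that branch, rose 7.71-fold from 13.2, 9.44 and 7.55 CPM to 85, 98.7 and 49.3 (adjusted p = 2.22e-05). Of 7 tested flavonoid genes 6 rose and 1 fell. Outside chromosomes 3 and 5, 2 flavonoid genes were tested and 2 rose. LDOX, a late enzyme gene, rose 4.72-fold from 21.2, 18.7 and 10.3 CPM to 69.9, 104 and 63.8 (adjusted p = 0.000689), TT7 rose 4.51-fold and TT5 3.84-fold. FLS1, the flavonol branch gene, fell 9.45-fold from 3.55, 3.34 and 3.07 CPM to 0.078, 0.603 and 0.338 (adjusted p = 0.000177).

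Among genes outside these lists, several of the largest changes set er erl2 apart from all 3 other genotypes. TGG2, a myrosinase gene whose product cleaves glucosinolates, was 9.08, 9.92 and 12 CPM in er erl2 and 811, 836 and 477 in pxf er erl2 (68.5-fold, log2 6.10 ± 0.236, adjusted p = 2.52e-08), with 825 ± 83.6 in wild type and 887 ± 61.3 in pxf. Its close copy TGG1 moved the other way, from 1433, 1344 and 1406 CPM to 767, 840 and 469.5 (2.01-fold lower), with 763 ± 74.1 in wild type. How reads shared by such copies were counted is not given in the sources used here, so the split between TGG1 and TGG2 is uncertain. DR4 went from 409, 372 and 289 CPM to 4634, 4801 and 3718 (12.3-fold, adjusted p = 1.56e-09), with 4493 ± 67.5 in wild type. HSP18.2, a small heat shock protein gene, was 8.45 ± 0.771 CPM in er erl2 and 57.7 to 97.3 on average in the other 3 genotypes.

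Other named rises were RPP8, a resistance gene with near copies (12.2-fold), the expansin gene EXPA5 (8.72-fold), the metal transporter gene YSL1 (7.95-fold) and GDU5 (7.59-fold). DOT1 went from 1946, 2089 and 2272 CPM to 4733, 5084 and 4178, with 2100 ± 205 in wild type and 4085 ± 314 in pxf. Other named falls were PDF1.2, a defensin gene (12.7-fold), MYB55 (11.3-fold), CRK6 (11.2-fold), HIPP25 (9.65-fold) and HR4 (9.31-fold). PDF1.2 varied most within er erl2, at 13, 39.4 and 7.9 CPM. It was 0.321 ± 0.341 CPM in wild type and 0.513 ± 0.571 in pxf, so the er erl2 libraries were the high ones. PDF1.2 (AT5G44420) lies in the span of large changes on chromosome 5 given below. HSP70, a heat shock protein gene, was 3544, 1738 and 3493 CPM against 1320, 959 and 813.5 (2.84-fold lower, adjusted p = 0.0228). HSP70 did not pass without er erl2 replicate 1 (adjusted p = 0.0695) or 3 (0.0724), or without pxf er erl2 replicate 2 (0.0724) or 3 (0.0825).

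The large changes were unevenly spread over the genome. Chromosome 5 held 129 of the 238 genes changed at least 8-fold (54.2%) and 23.4% of the tested nuclear genes, and 40.5% of its tested genes were called against 30.4% to 34.7% on the other chromosomes. Chromosome 3 held 43 of them, chromosome 1 held 36, chromosome 4 held 17 and chromosome 2 held 13. Of the 238, 129 had another such gene among the 10 tested genes on either side, as did 17.2% of all tested genes. Of 45 genes with no count in er erl2 and at least 1 CPM on average in pxf er erl2, 29 lay on chromosome 5 and 13 on chromosome 3, and 6 of the 8 genes with the reverse pattern lay on chromosome 5. In 3 stretches, AT5G27030 to AT5G27240, AT5G44500 to AT5G44610 and AT5G44990 to AT5G45110, at least 5 of the 20 nearest tested genes had such a change; they held 37 tested genes, 8 of them changed at least 8-fold themselves. In bins of 100 tested genes, those from AT5G24150 to AT5G45810 held 2 to 11 such genes each. The mutated loci ERL2 (AT5G07180) and PXY (AT5G61480) lie on chromosome 5 outside that span, in bins with 0 and 1. TGG2, PER64, GAUT12, CESA7, AHA3, FTIP1, VSP1 and VSP2 lie on that chromosome, as do CESA4, RPP8, PDF1.2, HCA2, REV, FLA12 and LAC17. On chromosome 3, the bins from AT3G25719 to AT3G44790 held 6 or 7 genes changed at least 8-fold each. SUS4, EXPA5, SCRM, FAR4 and FAR5 lie there, and no mutated locus does. On both chromosomes, the named alleles and other loci differing between the lines cannot be told apart. STM, WOX4, WOX14, NAC012, NST1, CESA8, APL and LHY lie on the other chromosomes. Without chromosomes 3 and 5, 3451 genes and 98 list members were called, 51 of these members higher and 47 lower.

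**Figure D4:**
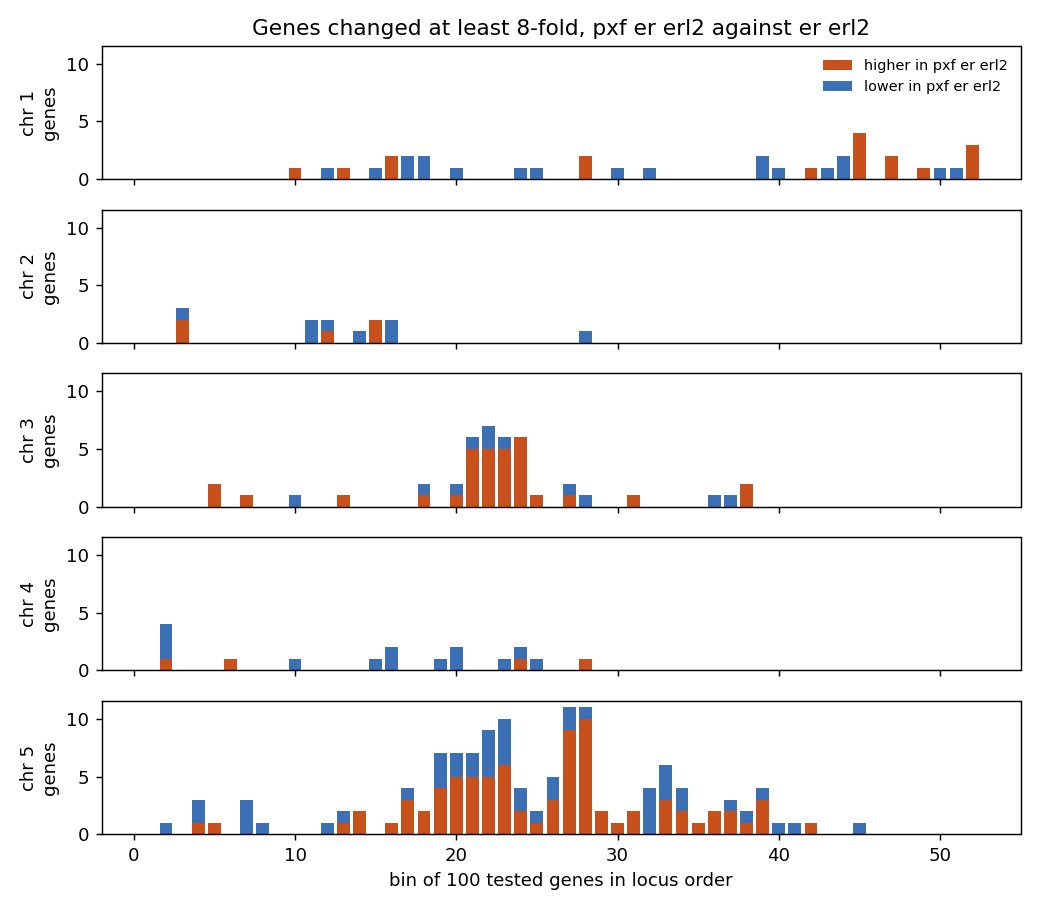
Number of genes changed at least 8-fold, pxf er erl2 against er erl2, in bins of 100 tested genes in locus order along each of the 5 chromosomes, split into higher and lower in pxf er erl2. The tallest bins stand in the middle of chromosome 5, with a lower cluster on chromosome 3.

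The same receptor loss was also measured with ER and ERL2 present, by pxf against wild type, and the 2 effects were set against each other by the test of their difference. This difference, pxf er erl2 minus er erl2 less pxf minus wild type on the log2 scale, passed in 1818 genes (9.45%), 895 positive (4.65%) and 923 negative (4.8%), and in 1119 without pxf replicate 1 and 1183 without pxf replicate 3. Of the 6591 genes called in pxf er erl2 against er erl2, 1516 (23.0%) had such a difference. Further, 2351 genes were called the same way in both comparisons, which share no library: 35.7% of the calls here and 58.2% of the 4041 calls of pxf against wild type. Over all 19236 tested genes, 18.0% were called higher and 16.2% lower here, and the 4041 calls of pxf against wild type cover both directions. Of the genes changed at least 8-fold, 132 of 238 had a called difference, and 90 of the 129 on chromosome 5. Genes picked by their change here are more likely to have a called difference, since that change is part of it. The 23.0%, the 132 of 238 and the 90 of 129 are therefore partly raised by the choice of genes.

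For cambium regulators the difference was negative in 9 of 27 genes and positive in none. Over all tested genes it was negative in 4.8% and positive in 4.65%, and these shares also stand beside the counts of the lists below. STM averaged 134 ± 13.5 CPM in wild type, 50.3 ± 5.39 in pxf, 155 ± 7.56 in er erl2 and 26.5 ± 4.42 in the quintuple mutant (difference log2 -1.13, adjusted p = 0.00107). WOX4 was 62.2 ± 3.18 CPM in wild type and 64.4 ± 3.97 in pxf, and fell in the er erl2 background (difference -0.44, adjusted p = 0.0121). WOX14 fell in both comparisons, and the difference of log2 -0.11 did not pass (adjusted p = 0.745). ANT was 41.1 ± 2.4 CPM in wild type and 88.6 ± 10.8 in pxf (difference -0.79, adjusted p = 0.0258). For PXY itself the difference was positive (log2 1.27, adjusted p = 1.48e-05), with 77.4 ± 5.76 CPM left in pxf er erl2 against the 22.9 CPM of pxf.

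DNA replication genes had a negative difference in 7 of 16 cases. PCNA1 was 31.6 ± 4.03 CPM in wild type, 36 ± 2.02 in pxf, 41.6 ± 2.17 in er erl2 and 31 ± 2.82 in the quintuple mutant (difference log2 -0.61, adjusted p = 0.0158). Auxin genes had one in 8 of 20 cases. LAX2 was 107 ± 22.6 CPM in wild type and 112 ± 14.4 in pxf, against its fall in the er erl2 background (difference -1.33, adjusted p = 0.00125), and IAA19 differed by -1.24. SUS4 was 323 ± 32.4 CPM in wild type and 397 ± 23.2 in pxf, against its fall here (difference -2.23, adjusted p = 9.99e-05).

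Cellulose and xylan genes had median changes of log2 -1.17 here and -0.54 in pxf against wild type, and the difference was called in 1 of 15, GAUT12 (-0.94, adjusted p = 0.0237). For CESA8 it was -0.57 (adjusted p = 0.254) and did not pass. NST1 and NAC012 fell in both comparisons, with differences of 0.17 (adjusted p = 0.875) and 0.48 (adjusted p = 0.766) that did not pass. All 3 companion cell genes that rose had a positive difference: AHA3 was 89.6 ± 8.42 CPM in wild type and 149 ± 1.55 in pxf (difference 0.77, adjusted p = 0.000289). AHA3 and FTIP1 lie on chromosome 5, and PP2-A1 lies on chromosome 4. A difference was called in 14.6% of the tested genes of chromosome 5 and in 9.45% of all tested genes.

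For photosynthesis genes the median change was log2 0.76 here and 1.44 in pxf against wild type, and the difference was negative in 12 of 31. RBCS1A was 171 ± 34.8 CPM in wild type and 838 ± 153 in pxf, against 422 ± 10.3 in er erl2 and 1011 ± 239 in the quintuple mutant (difference -1.03, adjusted p = 0.0413). Glucosinolate genes split, with 4 negative and 2 positive. BCAT4, a gene of methionine chain elongation, was 4.78 ± 1.19 CPM in wild type, 60.3 ± 5.45 in pxf, 71.8 ± 4.57 in er erl2 and 118 ± 13.9 in the quintuple mutant (difference -2.93, adjusted p = 1.28e-06).

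**Figure D5:**
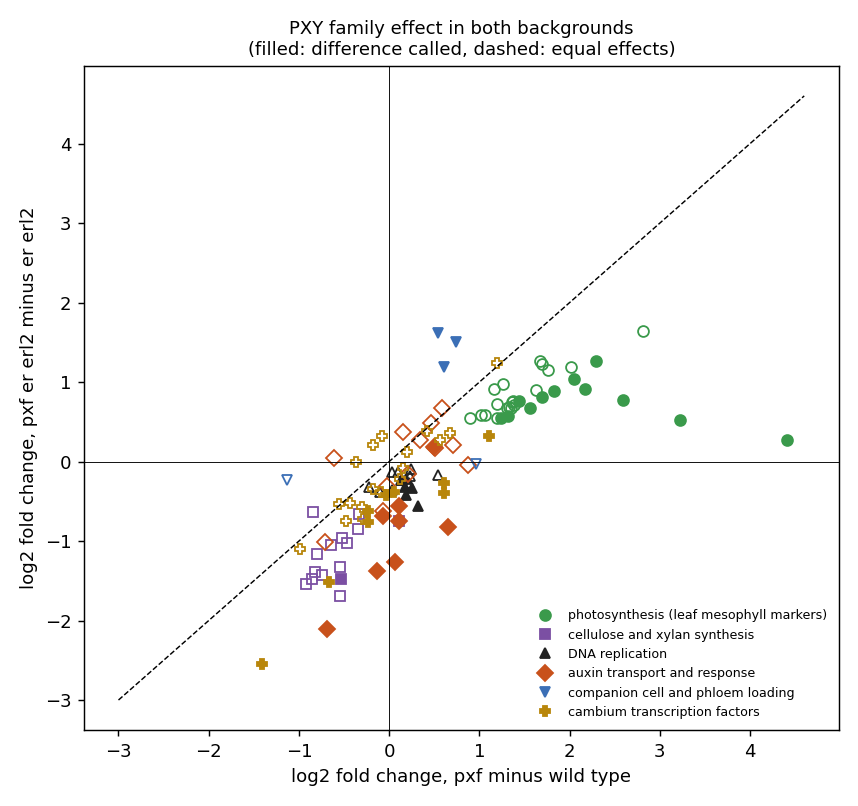
Log2 fold change of 6 gene lists in pxf against wild type (x axis) and in the quintuple mutant against er erl2 (y axis), filled where the difference of the effects was called and with a dashed line for equal effects. Photosynthesis genes lie below the line, companion cell genes that rose lie above it, and auxin and DNA replication genes with called differences lie below it.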

How the data were processed

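Poly-A RNA of 12 libraries (4 genotypes, 3 replicates each, 1 µg of RNA per library) was sequenced, per the labels' protocols. What the authors deposited for each library was a file of raw, whole-number counts per locus, unpooled and with no scaling recorded. The submitters' processing notes name HISAT2 2.0.5, featureCounts 1.5.0-p3 and TAIR10; the annotation, strand setting and handling of shared reads are not given in the sources used here. Counts of near-identical, overlapping or antisense genes are therefore uncertain.

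Libraries held 10507590 to 14716123 counts over 32833 loci. Symbols came from the RefSeq gene table of TAIR10.1, which held 32548 of the loci. Groups and replicate numbers came from the sample titles and genotype labels. edgeR 4.0.16 (R 4.3.3) fitted a quasi-likelihood model with a term per genotype to all 12 libraries, after filterByExpr, which left 19236 genes holding 99.9% of the counts, and TMM scaling (factors 0.985 to 1.011). The common biological coefficient of variation was 11.6%. A gene was called where its p, adjusted over all tested genes by Benjamini-Hochberg, was under 0.05; values are mean ± SD of CPM (n = 3), and fold changes have SE on the log2 scale. The fit was also run on data simulated from its own estimates of spread, with few genes changed. The comparison here has many more called genes, so that run does not test these calls. Replicate libraries differed by more than sampling noise (chi-square per degree of freedom 3.21 to 18). Count precision is limited by depth for genes with few counts.

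Genes were named by rule: the 5 mutated receptors; among called genes with no overlap between groups, at least 1 CPM in each, a symbol and no place in a run, the 8 largest rises and falls and the 4 most abundant 2-fold changes each way; up to 3 called members of each list each way; and all receptor, ligand and cambium genes. A gene was in a run where at least 5 of its 20 tested neighbours changed at least 8-fold. Genes named outside the rule were chosen after their values were seen. The members and the 27 gene lists were chosen with earlier results of these data known; 374 of 380 listed names matched the table and 6 were left out. Alternatives were RLE factors, library totals, no filter, DESeq2 1.42.0, a replicate block, the compared groups alone, a 2-fold minimum, leaving out genes in runs and leaving out each replicate; leaving out chromosomes 3 and 5 was added after the data were seen. A member of the auxin list is counted there but not reported here by name.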

Additional observations from a re-analysis of the deposited data

Results flagged for a closer look

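Of the 133 named and tested genes, 42 had a change on losing the PXY family that differed between the er erl2 and the wild type background, by edgeR's test of the difference (adjusted p under 0.05 over all genes). Over all tested genes the share was 9.45%. Many of the 133 were named for their change in pxf er erl2 against er erl2, which is part of the difference. Their share is therefore partly raised by how they were chosen. Values are that difference on the log2 scale, the change in the er erl2 background minus the change in the wild type background. Among receptors and cambium genes it was 1.27 for PXY, -0.74 for ER, -1.13 for STM, -0.85 for LBD11, -0.44 for WOX4, -0.79 for ANT, -1.01 for AIL5 and -0.88 for KNAT2. The HD-ZIP III genes ATHB-15, PHB and REV had differences of -0.52, -0.39 and -0.39. ER, AIL5, ANT and KNAT2 did not pass in pxf er erl2 against er erl2, and their log2 changes were 0.71, 0.61, 1.11 and 0.61 in pxf against wild type.

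Cell cycle genes had differences of 1.24 for CYCD1;1, -0.80 for CYCD6;1, -0.67 for CYCD5;1, -0.61 for PCNA1 and -0.88 for the replication licensing gene CDT1A. Wall and vascular genes had 1.25 for MYB63, -0.75 for LAC17, -0.89 for TMO5, -1.06 for T5L1 (AT1G68810), 0.77 for AHA3, 1.07 for FTIP1, 0.59 for PP2-A1, -1.15 for SUS1 and -2.23 for SUS4. Hormone genes had -1.33 for LAX2, -0.31 for LAX1, -1.24 for IAA19, -1.41 for IAA30, -2.02 for GA3OX1, -2.78 for GA20OX2, 0.72 for GA2OX2 and -1.15 for VSP1. Clock and leaf genes had -0.95 for LHY, -1.02 for PRR3 and -1.03 for RBCS1A.

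Named genes outside the lists had differences of 5.99 for TGG2, 3.40 for DR4, 2.75 for HSP18.2, 2.49 for RPP8 and 2.17 for GDU5, with -1.20 for TGG1. Of these 6 genes, all but DR4 lie on chromosome 5. DR4 lies in the bin of chromosome 1 with the most genes changed at least 8-fold, 4 of 100 tested. CYCD6;1, CDT1A, T5L1, LAX1, GA3OX1 and PRR3 lost their call in pxf er erl2 against er erl2 in at least 1 alternative.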

How the results depend on the processing

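A 2-fold minimum left 1864 of the 6591 calls of pxf er erl2 against er erl2 and 721 of the 1818 called differences between backgrounds, since it asks for more. Leaving out chromosomes 3 and 5 left 3451 genes and 98 of 177 list members called. These counts cover fewer genes, and the shares called also differed. They were 30.4% to 32.4% on chromosomes 1, 2 and 4, 34.7% on chromosome 3 and 40.5% on chromosome 5. The other settings gave 5731 (compared groups alone) to 6678 (library totals) genes, and 6564 without genes in runs. Of the calls, 52.6% were higher with TMM and 49.4% with library totals. Leaving out 1 library gave 5283 to 6607 genes, 154 to 191 list members and 1119 to 1747 differences, the lowest without pxf replicate 1; why was not tested. With a replicate block 6245 genes and 1464 differences were called; same-numbered libraries did not deviate together (correlations -0.17, 0.039 and -0.12), so the numbers were not taken to pair libraries.

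Of 348 genes followed, 194 were called, 161 of these in every alternative; 33 lost the call in at least 1, 47 others gained one, and no call changed direction. Calls lost in 7 or more of the 12 alternatives were those of KCS20, PCL1, ARR9, NAC045, LBD3, CESA4, LHCB2.1, PARVUS, LOX2 and LAX1. Counts moved by over 1.5 times in 7 lists, under 2 to 4 alternatives each. Depth limits genes with few counts, among them PXL1, ERL2, EPFL5, EPFL6 and most stomatal and root hair markers.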
